A study of Mus musculus with 20 samples.

Results

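The 10 genes described here encode the inducible proteasome subunits and the machinery that loads peptides onto MHC class I in mouse bone marrow-derived macrophages. They were chosen by name (Psmb8, Psmb9, Psmb10, Psme1, Psme2, Tap1, Tap2, Tapbp, Erap1 and Nlrc5) and make up 10 of the 24421 genes in the count tables. Bone marrow cells of 5 mice were grown in DMEM with 20% serum and 30% medium conditioned by L929 fibroblasts, a source of the macrophage growth factor CSF-1. They were then treated for 48 h, each mouse under every one of 4 conditions: the lipoparticle alone (LP), the lipoparticle with PIC (LP PIC), with 3M (LP 3M), or with both (LP 3M PIC, called the dual formulation here). The labels give no strain, age, dose or expansion of the codes PIC and 3M, and no untreated cells were analysed here, so every change is relative to macrophages that had met the lipoparticle.

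Class I molecules show peptides from the cell's own proteins to CD8 T cells. The proteasome cuts those peptides, and in immune cells its standard catalytic subunits can be replaced by the immunosubunits Psmb8, Psmb9 and Psmb10, while the activator made of Psme1 and Psme2 opens its end. The transporter Tap1/Tap2 pumps peptides into the endoplasmic reticulum, tapasin (Tapbp) holds the empty class I molecule beside it, and the aminopeptidase Erap1 trims the peptides. Nlrc5 is the transcriptional activator of class I genes and of several genes of this pathway, and interferons are the classical inducers of the whole set.

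All 10 genes passed the filter on low counts, with a lowest single count of 263. Library totals ran from 9740528 to 23874805 counts with a median of 22751911, and the lowest were those of mouse 2 in LP and mouse 3 in LP 3M PIC. Macrophage markers (8 of 8 genes found) summed to between 11175 and 26716 CPM (counts scaled to the library's total over all genes). Markers of T cells, B cells, NK cells and dendritic cells summed to at most 2.84, 1.05, 0.463 and 0.994 CPM in any library. Neutrophil markers (6 of 7 genes found) summed to 1.26 to 3.49 CPM in LP, 2.94 to 5.76 in LP PIC, 4.04 to 17.2 in LP 3M and 4.86 to 537 in LP 3M PIC. Elane, a granule protease that marks neutrophil precursors, was at 0 in all libraries of LP and of LP 3M. Fibroblast markers (5 of 5 genes found) summed to between 10.5 and 119 CPM, with Lum at 0 in all libraries of LP and of LP PIC.

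On the mouse genome (GRCm38, GENCODE M21) 5 of the 10 genes lie in the MHC region of chromosome 17 within 300 kb. Tapbp occupies 33915899 to 33929292, Psmb9 34181987 to 34187764 on the minus strand, Tap1 34187553 to 34197225, Psmb8 34197721 to 34201454 and Tap2 34203527 to 34216321. Psmb9 and Tap1 run in opposite directions and share 212 exonic bases, which is 5.79% of the exon length of Psmb9 and 3.87% of that of Tap1. Psme1 (55578123 to 55581529) and Psme2 (55587441 to 55591113, minus strand) are 5.91 kb apart on chromosome 14. Erap1 lies on chromosome 13 (74639568 to 74693201), and Nlrc5 (94434356 to 94527272) and Psmb10 (105935735 to 105938444, minus strand) on chromosome 8. Other exon overlaps with genes on the opposite strand touch Tapbp (24.9% of its exon length with Gm19412), Psmb8 (14.7% with Gm20496), Tap2 (14.1% with Gm15821) and Erap1 (11.5% with Cast). The strand setting of the counting is not given in the sources used here, so reads of such stretches cannot be assigned with certainty.

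Because the genes moved together, the RefSeq promoter windows (250 bases before to 50 after a start, GRCm38.p6) were searched on both strands for 4 motifs of factors known to act on this pathway. The motifs were picked after the data had been seen. Windows were found for 8 of the 10 genes, all but Tap2 and Nlrc5. Those of Psmb10 and Psme2 matched none of the 4 motifs. The 4 windows shown are those of Tap1 (chr17:34187306-34187605, whose window shares 275 bases with that of Psmb9), Psmb8 (chr17:34197945-34198244), Psme1 (chr14:55578244-55578543) and Erap1 (chr13:74639603-74639902), all on the plus strand. Capitals mark matches to the motifs searched.
Tap1: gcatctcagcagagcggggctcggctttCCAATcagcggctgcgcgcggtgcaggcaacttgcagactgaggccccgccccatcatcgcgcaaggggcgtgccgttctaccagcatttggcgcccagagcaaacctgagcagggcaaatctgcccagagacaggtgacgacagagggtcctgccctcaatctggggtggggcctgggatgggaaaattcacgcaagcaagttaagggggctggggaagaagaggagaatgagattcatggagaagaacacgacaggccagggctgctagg
Psmb8: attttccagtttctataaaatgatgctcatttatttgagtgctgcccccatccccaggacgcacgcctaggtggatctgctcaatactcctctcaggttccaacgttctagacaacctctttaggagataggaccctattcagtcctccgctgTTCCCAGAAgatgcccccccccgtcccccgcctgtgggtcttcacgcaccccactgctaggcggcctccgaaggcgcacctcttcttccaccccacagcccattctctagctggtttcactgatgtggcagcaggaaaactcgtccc
Psme1: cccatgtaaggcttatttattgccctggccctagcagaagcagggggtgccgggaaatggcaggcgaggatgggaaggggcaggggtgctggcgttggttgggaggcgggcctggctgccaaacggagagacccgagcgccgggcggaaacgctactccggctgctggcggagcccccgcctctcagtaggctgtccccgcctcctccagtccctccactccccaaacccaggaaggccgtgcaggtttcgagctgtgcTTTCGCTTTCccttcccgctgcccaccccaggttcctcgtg
Erap1: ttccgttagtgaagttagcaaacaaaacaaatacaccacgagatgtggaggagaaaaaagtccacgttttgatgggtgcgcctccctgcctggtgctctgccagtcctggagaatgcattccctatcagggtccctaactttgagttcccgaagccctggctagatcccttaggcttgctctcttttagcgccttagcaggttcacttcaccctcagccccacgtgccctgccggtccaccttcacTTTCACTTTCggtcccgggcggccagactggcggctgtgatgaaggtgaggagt

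The interferon-stimulated response element was searched as GAAA, any 2 bases, GAAA, and it was matched on the minus strand in Erap1 and Psme1, against 3.44% of the 32851 windows of all genes. In Erap1 the match starts 4 bases before the annotated start and in Psme1 it starts at base 10 after it. The gamma-activated site, searched as TTCNNNGAA, was matched in Psmb8, 97 bases upstream, and in 8.30% of all windows. The NF-Y box CCAAT was matched in Tap1, Psmb9 and Tapbp and in 37.4% of all windows, and the box of Tap1 and that of Psmb9 are the same 5 bases, in the 225 bases between their starts. The kB motif, searched by its consensus, was matched in 0 of the 9 windows of these genes and in 8.46% of all windows. These are matches of letters, and binding was not measured.

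With PIC on the lipoparticle, all 10 genes rose above LP, by 1.05 to 2.05 on the log2 scale with a median of 1.54. The values of LP PIC and LP did not overlap for any of the 10. Over all 12132 genes tested, 22.7% were called higher in this comparison, 14.7% were higher with no overlap, and the median change was -0.000356 on the log2 scale. Called here means an adjusted p under 0.05 in the edgeR quasi-likelihood test with Benjamini-Hochberg adjustment over all tested genes, and errors of log2 changes are standard errors. In bulk RNA, fewer cells that express a gene and less RNA per cell cannot be told apart.

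**Figure D1:**
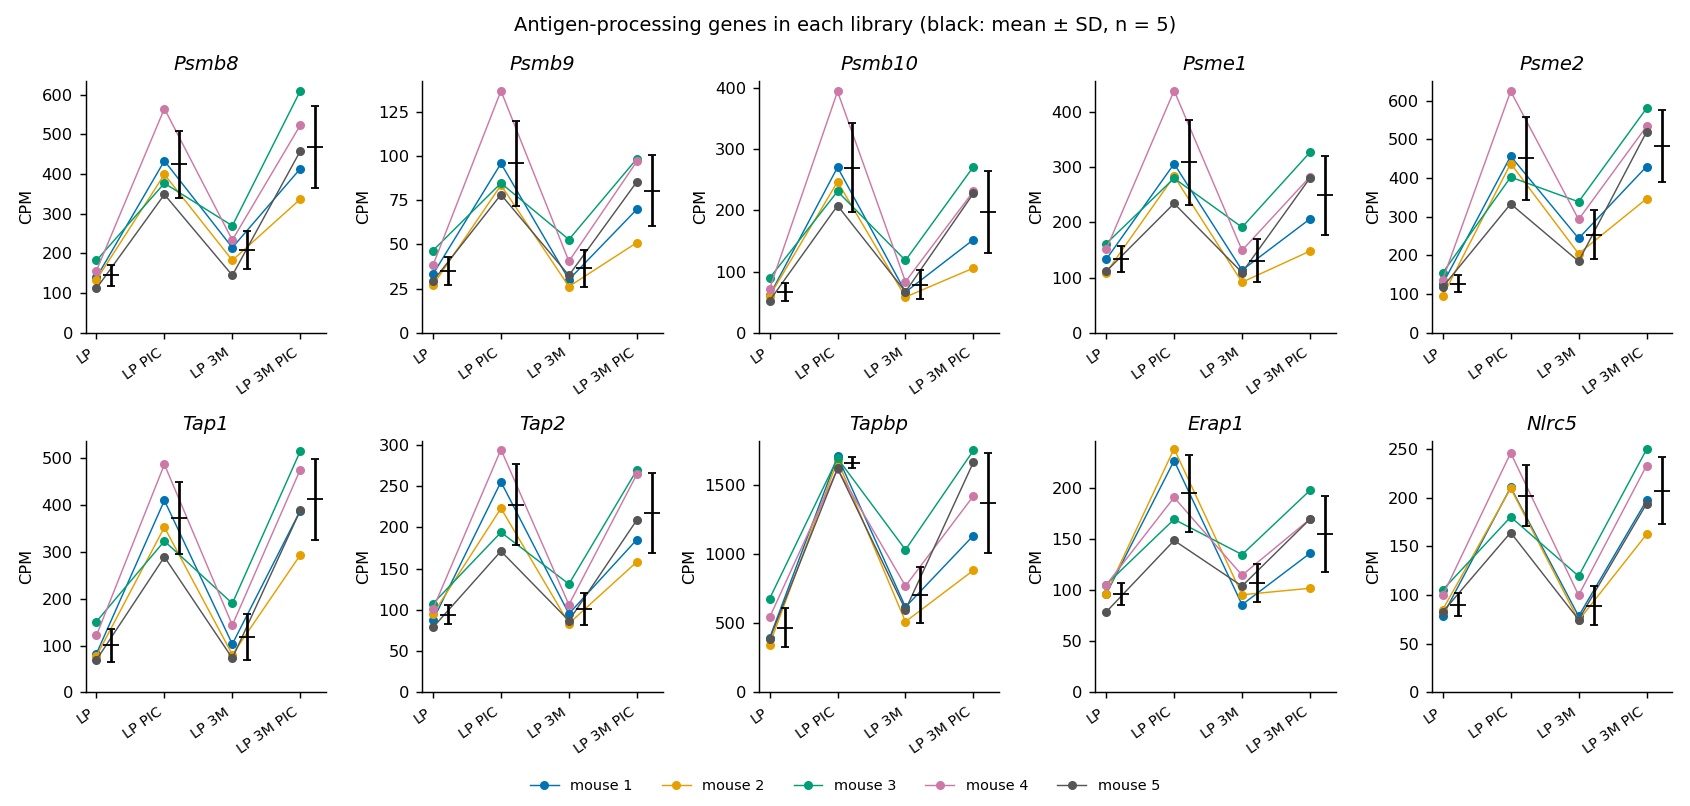
CPM of the 10 genes (vertical axis, from 0) in the 4 conditions, with 1 coloured line per mouse and the mean ± SD of 5 mice in black. All 10 panels rise from LP to LP PIC in every mouse, and in LP 3M most points lie near those of LP.

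The immunosubunit Psmb8 stood at 139, 134, 182, 157 and 112 CPM in LP (mice 1 to 5 in this order, as in all such series here). In LP PIC it stood at 433, 399, 377, 565 and 349 CPM, so the lowest treated value was above the highest control value. The change was 1.59 ± 0.19 on the log2 scale (adjusted p = 2.07e-06, edgeR), and Psmb8 rose in 5 of 5 mice. Psmb10, the immunosubunit with trypsin-like activity, had the largest change of the 10 genes, from 67.0 ± 14.3 CPM (SD, n = 5) to 270 ± 73.1 CPM, or 2.05 ± 0.26 on the log2 scale (adjusted p = 4.02e-06, edgeR). Psmb9, the immunosubunit that replaces Psmb6, was the least abundant of the 10 by count. It went from 34.9 ± 7.81 to 95.8 ± 23.8 CPM, a log2 change of 1.49 ± 0.22.

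The activator genes rose as well. Psme2 stood at 127, 95.1, 155, 138 and 118 CPM in LP. In LP PIC it reached 457, 438, 403, 625 and 333 CPM. Its change of 1.87 ± 0.20 on the log2 scale (adjusted p = 4.22e-07, edgeR) had the smallest p of the 10 genes. Its partner Psme1 went from 133 ± 23.4 to 308 ± 77.3 CPM (log2 change 1.25 ± 0.23), less than Psme2 by fold although both proteins form 1 ring. Psme2b, a single-exon near copy of Psme2 on chromosome 11 (48945354 to 48946190) that was looked up after the data had been seen, rose by 1.49 ± 0.23 on the log2 scale. Reads that fit both genes may be left out of counting or assigned to either, so the values of Psme2 are uncertain to that extent.

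Among the loading genes, tapasin was the most abundant. Tapbp stood at 393, 346, 678, 543 and 386 CPM in LP and at 1709, 1680, 1696, 1618 and 1622 CPM in LP PIC. The spread over mice in LP PIC was narrow, with a coefficient of variation of 2.54% against a median of 21.2% over the 10 genes. Its change was 1.86 ± 0.22 on the log2 scale (adjusted p = 1.56e-06, edgeR). Tap1, the first chain of the peptide transporter, stood at 82.6, 77.6, 151, 122 and 69.4 CPM in LP and at 410, 353, 323, 487 and 289 CPM in LP PIC. That is a log2 change of 1.92 ± 0.28 (adjusted p = 1.86e-05, edgeR). Tap2, the other chain, changed by 1.32 ± 0.17, from 94.1 ± 11.3 to 228 ± 48.9 CPM. The peptide-trimming Erap1 had the smallest change of the 10, from 96.6 ± 10.9 to 195 ± 37.9 CPM (1.05 ± 0.16 on the log2 scale, adjusted p = 3.21e-05, edgeR).

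The activator Nlrc5 stood at 78.7, 84.9, 105, 99.4 and 82.6 CPM in LP and at 210, 210, 180, 246 and 164 CPM in LP PIC. Its rise of 1.20 ± 0.15 on the log2 scale (adjusted p = 3.59e-06, edgeR) was below the median of the 10 genes.

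Divided by exon length, the genes differed by over an order of magnitude in level. In LP, Tapbp was highest at 129 ± 38.3 CPM per kb, above Psme2 at 71.8 ± 12.7 with no overlap of the 5 values. Psme2, Psme1 (60.3 ± 10.6), Psmb8 (42.8 ± 7.83) and Psmb10 (39.3 ± 8.37) each overlapped with the next in this order. Below a gap came Tap2 (24.9 ± 3.00), Tap1 (18.4 ± 6.35), Erap1 (13.3 ± 1.5), Nlrc5 (10.6 ± 1.35) and Psmb9 (9.52 ± 2.13), again each overlapping with the next. In LP PIC, Tapbp at 459 ± 11.7 CPM per kb was still highest and Psmb10 had moved from rank 5 to rank 3 at 158 ± 42.9 CPM per kb. In the dual formulation the lowest rank fell to Erap1, at 21.3 ± 5.07 CPM per kb. These levels use the length of all annotated exons merged, and both the ranks and the overlaps depend on it. For Psme2 that length is 1764 bases, against 962 in its longest transcript, and for Tapbp it is 3628 against 2898. The ranks were not computed with other lengths, and close ranks in particular may change.

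With 3M on the lipoparticle, 3 of the 10 genes rose above LP: Psme2, Tapbp and Psmb8. Over all tested genes 20.0% were called higher, so this share is near the background. The median change of the 10 genes was 0.29 on the log2 scale, against -0.01 over all tested genes. Groups did not overlap for 1 of the 10, Psme2, while 10% of all tested genes were higher with no overlap.

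Psme2 in LP 3M stood at 244, 205, 339, 293 and 185 CPM, which puts every mouse above the highest LP value of 155 CPM. Its change was 1.10 ± 0.19 on the log2 scale (adjusted p = 0.00021, edgeR). Psme1, on the other hand, stood at 131 ± 39.7 CPM in LP 3M and 133 ± 23.4 in LP (0.08 ± 0.23 on the log2 scale, adjusted p = 0.804, edgeR), and was lower than in LP in 4 of 5 mice by CPM. The difference between the changes of the activator's 2 genes was not tested.

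Tapbp in LP 3M stood at 618, 512, 1033, 770 and 599 CPM, higher than LP in each mouse although the groups overlap. Its change was 0.69 ± 0.21 on the log2 scale (adjusted p = 0.0149, edgeR). Without mouse 1, without mouse 4 or without the LP 3M library of mouse 3 the adjusted p was 0.062, 0.0584 and 0.0573. Psmb8 in LP 3M stood at 215, 183, 270, 234 and 145 CPM, a log2 change of 0.64 ± 0.19 (adjusted p = 0.0115, edgeR) that had an adjusted p of 0.0639 without mouse 1.

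The other 7 genes did not pass the test with 3M. Their log2 changes were 0.34 ± 0.25 for Psmb10, 0.33 ± 0.27 for Tap1, 0.26 ± 0.16 for Erap1, 0.20 ± 0.17 for Tap2, 0.16 ± 0.22 for Psmb9 and 0.09 ± 0.15 for Nlrc5, beside that of Psme1. With plain library totals in place of TMM scaling, the median change of all tested genes moved by -0.11 on the log2 scale both for LP 3M and for LP 3M PIC against LP. Under that scaling the values of Psme1 (-0.02) and Nlrc5 (-0.02) in LP 3M changed sign.

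With both adjuvants on the particle, all 10 genes rose above LP, by 0.79 to 2.13 on the log2 scale with a median of 1.48, against 0.02 over all tested genes. Of all tested genes 31.7% were called higher. Groups did not overlap for 8 of the 10, the exceptions being Erap1 and Psme1, against 17.7% of all tested genes that were higher with no overlap. Tap1 had the largest change, 2.13 ± 0.28 on the log2 scale (adjusted p = 2.52e-06, edgeR), from LP to 388, 293, 515, 476 and 389 CPM. Psme2 reached 430, 347, 581, 534 and 520 CPM (2.03 ± 0.20) and Psmb8 413, 337, 610, 523 and 458 CPM (1.80 ± 0.19). Psmb10 at 198 ± 67.1 CPM (1.66 ± 0.25), Tapbp at 1373 ± 363 CPM (1.65 ± 0.22), Tap2 at 217 ± 48.8 CPM (1.31 ± 0.17), Nlrc5 at 207 ± 34.4 CPM (1.31 ± 0.15) and Psmb9 at 80.3 ± 20.0 CPM (1.30 ± 0.22) followed. Psme1 changed by 1.00 ± 0.23, and Erap1 again had the smallest change, 0.79 ± 0.16 on the log2 scale (adjusted p = 0.000283, edgeR).

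**Figure D2:**
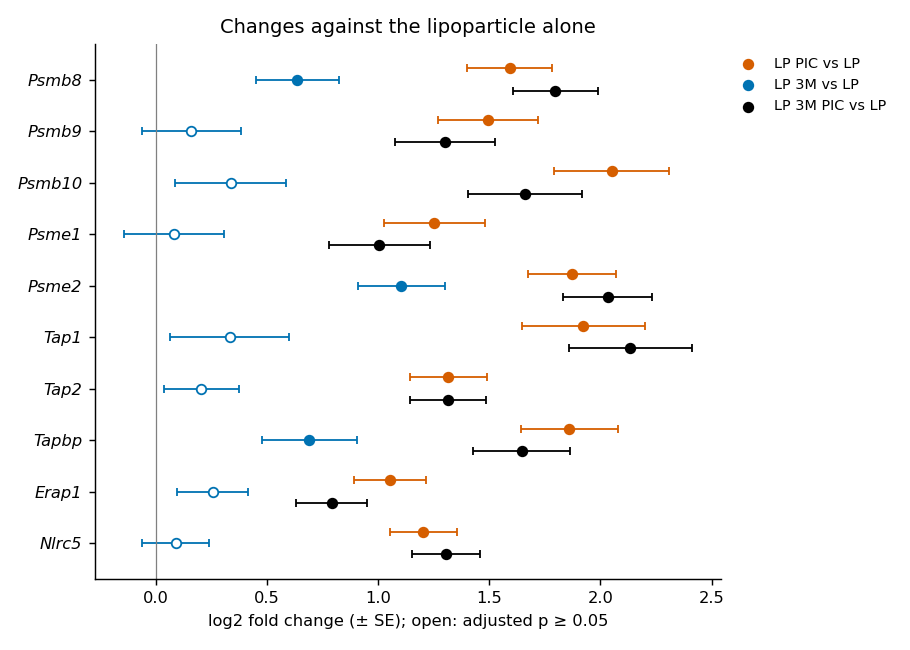
Log2 fold change of each gene against LP (horizontal axis, ± SE) in the 3 other conditions, filled where the adjusted p was under 0.05. All 10 points are filled for LP PIC and for LP 3M PIC, and 3 are filled for LP 3M (Psmb8, Psme2 and Tapbp).

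The conditions were also compared with each other. These comparisons share samples with those above, and those between the dual and a single formulation assume the same amount of each adjuvant, which the labels do not give. LP 3M was below LP PIC for 10 of the 10 genes, with a median of -1.14 on the log2 scale and 22.7% of all tested genes called lower. The largest difference was that of Psmb10 (-1.71 ± 0.25) and the smallest that of Psme2 (-0.77 ± 0.19), and 9 of the 10 had no overlap, all but Psme2, against 18.1% of all tested genes. The dual formulation was above LP 3M for 10 of the 10 genes, with a median of 1.13 on the log2 scale and 20.5% of all tested genes called higher. Tap1 differed most (1.80 ± 0.27) and Erap1 least (0.53 ± 0.16, adjusted p = 0.0117, edgeR, and 0.0537 without mouse 4), and 5 of the 10 had no overlap (Psmb8, Psme2, Tap1, Tap2 and Nlrc5) against 12.2% of all tested genes.

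Between the dual formulation and LP PIC, 0 of the 10 genes were called by edgeR, 0 had an unadjusted p under 0.05, and 0 were called by DESeq2, while edgeR called 44.5% of all tested genes. For 0 of the 10 did the groups separate, against 24.4% of all tested genes. Log2 differences ran from -0.39 ± 0.25 (Psmb10) to 0.21 ± 0.27 (Tap1), with adjusted p between 0.189 and 0.995. The intervals of 2 standard errors are wide enough to hold changes of some size: -0.89 to 0.10 for Psmb10, -0.58 to 0.06 for Erap1, -0.17 to 0.58 for Psmb8 and -0.20 to 0.40 for Nlrc5. Without mouse 3, Erap1 was called lower, at -0.42 on the log2 scale with an adjusted p of 0.0492 (edgeR).

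Within mice, however, the 10 genes differed in the same direction between LP PIC and the dual formulation, a pattern noticed after the data had been seen. In mice 3 and 5 all 10 were higher in the dual formulation, with CPM ratios of 1.03 to 1.62 and 1.03 to 1.56. In mice 1, 2 and 4 all 10 were lower, with ratios of 0.563 to 0.954, 0.427 to 0.844 and 0.586 to 0.977. Of all tested genes, 4.43% had this arrangement of mice. Both the ratios and this share use plain library totals. Under these the median difference of all tested genes was -0.065 on the log2 scale, against 0.003 with TMM scaling. Ratios close to 1 may therefore change side with the scaling, and the pattern was not computed with TMM scaling. The widest spread was that of Psmb10, at 270, 247, 231, 394 and 208 CPM in LP PIC and 152, 106, 271, 231 and 228 CPM in the dual formulation. Irf1, an interferon-induced activator of these genes, stood at 207, 172, 145, 274 and 119 CPM in LP PIC and 109, 72.2, 216, 152 and 162 CPM in the dual formulation, so it too was higher in mice 3 and 5 alone. Other genes of the pathway varied. The class I chains B2m and H2-D1 were higher in 0 of 5 mice and H2-K1 in 1. Psme2b was higher in 2, and the NF-kB subunits Rela and Nfkb1 in 1 and 5. A part of Irf1 in the pattern was not tested.

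**Figure D3:**
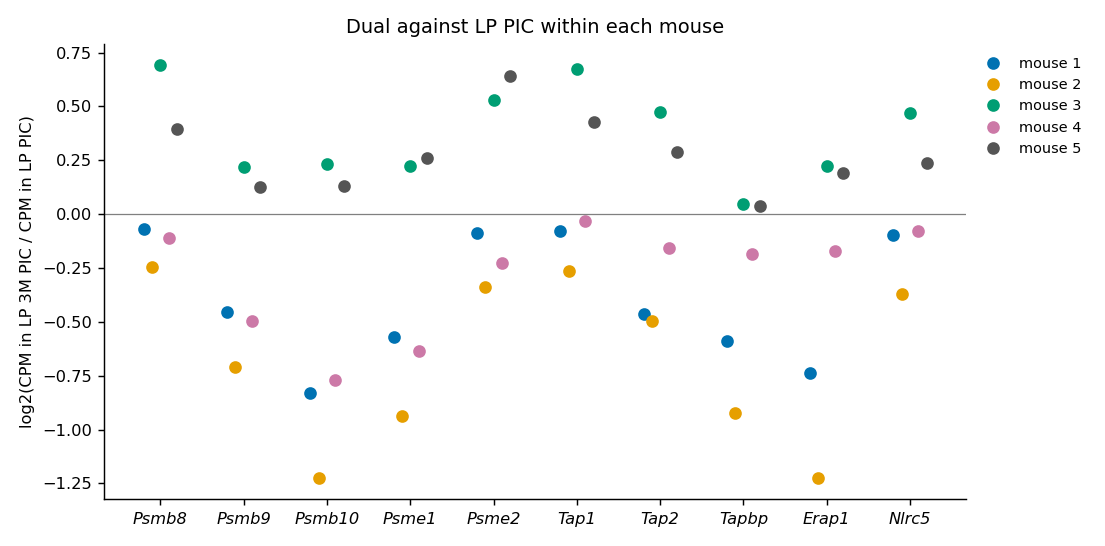
Log2 of the ratio of CPM in LP 3M PIC to CPM in LP PIC (vertical axis) for each of the 10 genes, with 1 point per mouse. All points of mice 3 and 5 lie above 0 and all points of mice 1, 2 and 4 lie below it, most widely for Psmb10 and Erap1 in mouse 2.

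The order of the mice was shared by the genes in each condition. Mouse 3 had the highest value of all 10 genes in LP, in LP 3M and in the dual formulation, an arrangement that 2.43% of all tested genes had. Mouse 4 came next, with mean ranks of 2, 2 and 2.1 over the 10 genes in these conditions. In the labels the numbers of mice 3 and 4 lack the letter A that those of mice 1, 2 and 5 carry, and its meaning is not given. In LP PIC mouse 4 was highest for 8 of the 10 (mouse 1 for Tapbp, mouse 2 for Erap1) and mouse 5 lowest for 9. In the dual formulation mouse 2 was lowest for all 10. The neutrophil marker sum in the dual formulation was 101, 537, 4.86, 20.0 and 10.9 CPM in mice 1 to 5. It was nearly all S100a8, which reached 536 CPM, while in that condition Camp reached at most 2.05 CPM, Ngp 0.384, Mpo 0.325, S100a9 0.278 and Elane 0.0854. The fibroblast marker sum in the dual formulation was 60.1, 119, 20.2, 24.4 and 17.9 CPM. Both sums were highest in mice 1 and 2, while mouse 4, whose values were also below those of LP PIC, had sums nearer to those of mice 3 and 5. The fibroblast sum was also highest in mice 1 and 2 in LP PIC (33.1 and 50.5 CPM, against 16.9 to 19.7 in the other mice). There these mice were not the lowest for any of the 10 genes. In LP 3M mice 1 and 2 again had the highest fibroblast sums (61.3 and 72.1 CPM). Their neutrophil sums were also the highest in LP 3M (16.6 and 17.2 CPM, against 4.04 to 7.72). In that condition mouse 2 was lowest for 6 of the 10 genes, mouse 5 for 3 and mouse 1 for 1. The part of S100a8 and of the fibroblast markers in the lower values was not tested.

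On the log2 scale the change with both adjuvants was compared with the sum of the single changes. Of the 10 genes 1, Psme2, departed from the sum with an adjusted p under 0.05, and it was lower, against 4.62% of all tested genes called lower. The single changes of Psme2 summed to 2.98 and the dual change was 2.03, a departure of -0.94 ± 0.27 (adjusted p = 0.0385, edgeR). This call held in 16 of 32 settings, with adjusted p from 0.00369 with the mouse as a block to 0.195 without mouse 1. It was lost without mouse 1, 2 or 4 (0.195, 0.122 and 0.17), without the filter (0.0508), and without any 1 of 12 single libraries (0.0525 to 0.0739): all of mouse 1, all of mouse 4, the LP and dual libraries of mouse 2, the LP 3M library of mouse 3 and the LP library of mouse 5. Tapbp departed by -0.90 ± 0.30 (adjusted p = 0.0707, edgeR), and with the mouse as a block by -0.96 (adjusted p = 0.00439). Over 32 settings its adjusted p ran from 0.00439 to 0.276, and it was under 0.05 in 5, among them DESeq2 at 0.0297. With the block 2 of the 10 genes were therefore called.

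The remaining departures were -0.73 ± 0.35 for Psmb10, -0.52 ± 0.23 for Erap1, -0.43 ± 0.27 for Psmb8, -0.35 ± 0.31 for Psmb9, -0.33 ± 0.32 for Psme1, -0.21 ± 0.24 for Tap2, -0.12 ± 0.38 for Tap1 and 0.01 ± 0.21 for Nlrc5. None of these 8 passed the test. The median of the 10 was -0.39 on the log2 scale, against 0.00 over all tested genes.

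**Figure D4:**
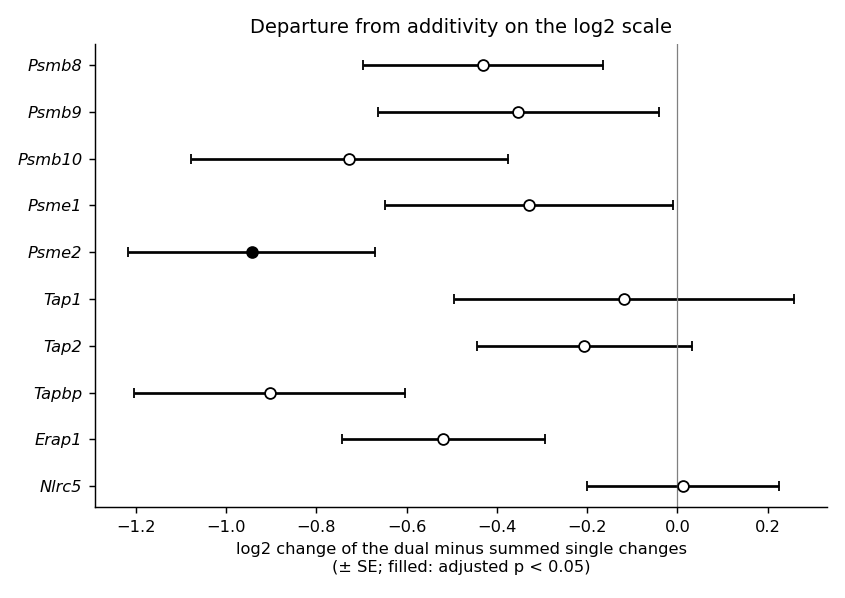
Dual change minus the sum of the single changes on the log2 scale (horizontal axis, ± SE) for each gene, filled where the adjusted p was under 0.05. Psme2 at -0.94 is the filled point, Tapbp at -0.90 is next to it, and Nlrc5 lies at 0.01.

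Each immunosubunit competes with 1 standard subunit for its place in the proteasome: Psmb8 with Psmb5, Psmb9 with Psmb6 and Psmb10 with Psmb7. The share of the immunosubunit in the pair was computed from CPM per kb of exon, so its level depends on the annotated lengths, and it describes RNA, not assembled proteasomes. All 3 standard subunits rose in LP PIC, by 0.51 ± 0.10 (Psmb5), 0.64 ± 0.12 (Psmb6) and 0.36 ± 0.08 (Psmb7) on the log2 scale. In LP 3M they rose by 0.60 ± 0.10, 0.45 ± 0.12 and 0.47 ± 0.08, and in the dual formulation by 0.91 ± 0.10, 0.80 ± 0.12 and 0.79 ± 0.08.

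The Psmb10 share was 54.7, 55.3, 67.5, 60.8 and 55.9% in LP and 83.1, 81.4, 81.2, 85.6 and 79.3% in LP PIC, with no overlap. The difference was 23.3 percentage points (exact permutation p = 0.00794, adjusted over the 18 comparisons of shares 0.0159), and 0.00794 is the smallest p that 5 against 5 can give. In the dual formulation the share was 67.2, 60.6, 78.9, 74.5 and 75.5%, below every LP PIC value, a difference of -10.8 points (adjusted exact permutation p = 0.0159). The partner Psmb7 was higher in the dual formulation than in LP PIC in 5 of 5 mice. Its log2 difference was 0.44 ± 0.08 (adjusted p = 0.000226, edgeR). Psmb10 itself was not called (-0.39 ± 0.25, adjusted p = 0.209, edgeR), and its CPM was lower in 3 of 5 mice. Against LP the dual share differed by 12.5 points (adjusted exact permutation p = 0.051) and was higher in 5 of 5 mice.

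The Psmb8 share was 34.8, 29.1, 45.1, 39.4 and 29.8% in LP and 58.8, 54.0, 51.4, 59.5 and 45.1% in LP PIC, where mouse 5 overlaps with mouse 3 of LP. The difference was 18.1 points (adjusted exact permutation p = 0.0286). In the dual formulation it was 50.3 ± 3.82% (SD, n = 5), a difference of 14.6 points from LP (adjusted exact permutation p = 0.0159) and of -3.49 points from LP PIC (adjusted exact permutation p = 0.339). The Psmb9 share was 7.18 ± 1.73% in LP, 12.2 ± 2.07% in LP PIC and 9.85 ± 0.771% in the dual formulation (n = 5 each). The dual value was below LP PIC by 2.34 points (-2.34, adjusted exact permutation p = 0.044) and above LP by 2.68 points (adjusted exact permutation p = 0.044). Between LP PIC and the dual formulation neither Psmb9 (-0.19 ± 0.22 on the log2 scale) nor Psmb6 (0.16 ± 0.12) was called by edgeR. The share was lower in 5 of 5 mice, while the CPM of Psmb9 was lower in 3.

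Without mouse 1, 2 or 4 in turn, each of these calls on shares was lost (adjusted exact permutation p of 0.0571 to 0.147), and 4 mice against 4 leave fewer arrangements. The Psmb10 shares of LP PIC and LP do not overlap whichever mouse is left out, and that call was lost too. A lost call therefore does not by itself show that the difference rests on the mouse left out. For Psmb9 the difference between the dual formulation and LP PIC was also lost without mouse 3 (adjusted exact permutation p = 0.11), and that between the dual formulation and LP without mouse 5 (adjusted exact permutation p = 0.119). With 3M alone no share passed the test against LP: the differences were 0.34 points for Psmb8, -1.28 for Psmb9 and -2.49 for Psmb10, with adjusted exact permutation p of 0.921, 0.286 and 0.58. The share of Psmb9 was nevertheless lower than in LP in 5 of 5 mice, that of Psmb10 in 4 and that of Psmb8 in 3. These tests do not use that each mouse gave every condition, and an exact paired test of 5 mice cannot go below 0.0625. Psmb8 and its partner Psmb5 both rose in LP 3M, by 0.64 ± 0.19 and 0.60 ± 0.10 on the log2 scale.

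**Figure D5:**
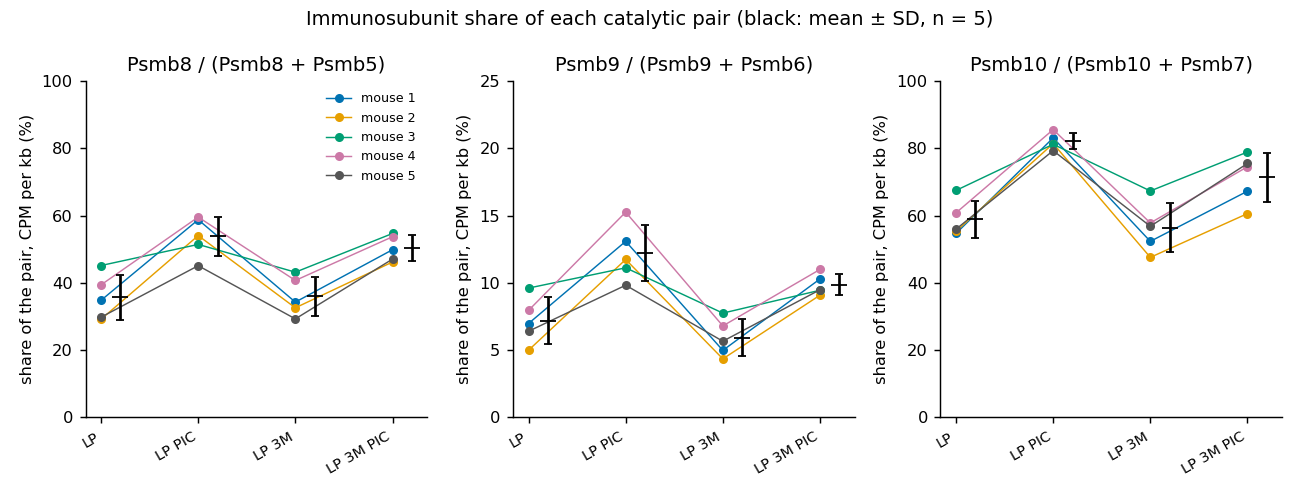
Share of the immunosubunit in each catalytic pair (vertical axis, percent of CPM per kb, with a shorter axis for Psmb9) by condition, with 1 line per mouse and the mean ± SD of 5 mice in black. Mean shares are higher in LP PIC and LP 3M PIC than in LP and LP 3M, and the Psmb10 share is lower in LP 3M PIC than in LP PIC in every mouse.

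Other proteasome subunits had smaller median changes than the 10 genes in LP PIC and in the dual formulation. Of the other 11 subunits of the 20S core, 10 rose in LP PIC (median log2 change 0.38), 11 in LP 3M (0.34) and 11 in the dual formulation (0.65). The alpha subunit Psma5 had the smallest p in each, with 0.57 ± 0.09, 0.51 ± 0.09 and 0.96 ± 0.09. Of 18 subunits of the 19S cap, which recognises ubiquitinated proteins, 8, 14 and 14 rose, and 1 fell in the dual formulation (Psmd8, -0.47 ± 0.14). The risers with the smallest p were the ATPases Psmc5 in LP PIC (0.54 ± 0.10) and Psmc1 in LP 3M (0.47 ± 0.06), and Psmd7 in the dual formulation (0.62 ± 0.06), where Psmc5 had a larger change (0.78 ± 0.10). Among all tested genes, 22.7%, 20.0% and 31.7% were called higher in these 3 comparisons, and 22.7%, 19.5% and 30.6% were called lower. With plain library totals 8 of the 18 cap genes rose in LP 3M.

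Of 11 tested assembly factors and other caps, 4, 5 and 6 rose in LP PIC, LP 3M and the dual formulation, where 22.7%, 20.0% and 31.7% of all tested genes were called higher. The assembly chaperone Psmd10 had the largest changes among them, 1.76 ± 0.10, 1.51 ± 0.10 and 1.96 ± 0.10 on the log2 scale, and it departed from the sum of its single changes by -1.31 ± 0.13 (adjusted p = 1.2e-05, edgeR). The inhibitor Psmf1 fell in LP 3M (-0.17 ± 0.06, adjusted p = 0.0439, edgeR), where 19.5% of all tested genes were called lower. In LP 3M 3 rose with plain library totals, without the filter or with at least 10 CPM required in 5 libraries, and the call of Psmf1 was lost without the filter and in a fit of only the groups compared.

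All 3 class I chains rose in LP PIC, beside 22.7% of all tested genes called higher, and in the dual formulation, beside 31.7%. In LP PIC the change was 2.08 ± 0.20 for the heavy chain H2-K1 and 1.31 ± 0.16 for the light chain B2m. That of H2-D1 was 0.91 ± 0.14. In LP 3M none of the 3 passed the test (0.39 ± 0.19, 0.25 ± 0.15 and -0.26 ± 0.14, in the same order), though H2-K1 did with the mouse as a block (adjusted p = 0.0256, edgeR) and H2-D1 was called lower with plain library totals (-0.36, adjusted p = 0.0341, edgeR). In the dual formulation they rose by 1.77 ± 0.19, 0.98 ± 0.16 and 0.38 ± 0.14, and the call of H2-D1 was lost with plain library totals (adjusted p = 0.0744, edgeR), without mouse 1 (0.0643), without mouse 5 (0.0824) and without the LP library of mouse 1 (0.0607) or mouse 2 (0.053) or the dual library of mouse 3 (0.0506). Against LP PIC, H2-D1 was lower in the dual formulation (-0.53 ± 0.14, adjusted p = 0.00416, edgeR), in 5 of 5 mice, with no overlap of the groups and in all 33 settings (adjusted p 0.000534 to 0.037). Between these conditions 44.5% of all tested genes were called in either direction and 24.4% had no overlap. With the mouse as a block, H2-K1 and B2m were also lower in the dual formulation than in LP PIC (-0.35 and -0.32, adjusted p = 0.0388 and 0.0341, edgeR) and departed downward from the sum of single changes (-0.75 and -0.59, adjusted p = 0.0166 and 0.0314, edgeR).

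Among 9 partners of loading and translocation, 2 rose and 1 fell in LP PIC, 7 rose in LP 3M, and 7 rose and 1 fell in the dual formulation. Beside 22.7%, 20.0% and 31.7% of all tested genes called higher, the count that rose in LP PIC is at the background. Of all tested genes 22.7% were called lower in LP PIC and 30.6% in the dual formulation. Tapbpl, a relative of tapasin that edits peptides, rose in LP PIC (1.83 ± 0.23) and in the dual formulation (1.26 ± 0.23), and had a log2 change of 0.05 ± 0.23 in LP 3M. Sec61a1, the channel through which proteins enter the endoplasmic reticulum, rose in LP 3M (0.50 ± 0.07) and in the dual formulation (0.63 ± 0.07), with 0.03 ± 0.07 in LP PIC. Uggt1, which checks the folding of glycoproteins, fell in LP PIC (-0.41 ± 0.10) and in the dual formulation (-0.39 ± 0.10). With plain library totals 4 partners rose in the dual formulation.

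Of 8 cytosolic and other peptidases, 1 rose and 4 fell in LP PIC, 5 rose in LP 3M and 3 rose in the dual formulation. The background was 22.7% higher and 22.7% lower in LP PIC, 20.0% higher in LP 3M and 31.7% higher in the dual formulation, and the last count is near it. The puromycin-sensitive aminopeptidase Npepps rose in all (0.64 ± 0.08, 0.76 ± 0.08 and 0.84 ± 0.08), and Tpp2 fell in LP PIC (-0.62 ± 0.11). With plain library totals 1 peptidase rose in LP 3M.

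Of 17 transcriptional regulators of the pathway, 11 rose and 3 fell in LP PIC, 3 rose and 3 fell in LP 3M, and 11 rose and 2 fell in the dual formulation. The counts in LP 3M are near the shares of all tested genes, 20.0% higher and 19.5% lower. So is the count of those that fell in LP PIC (22.7%). Of all tested genes 22.7% were called higher in LP PIC and 31.7% in the dual formulation, where 30.6% were called lower. With plain library totals 5 fell in LP 3M and 4 in the dual formulation, and without the filter 1 fell in LP PIC. Irf1 rose in LP PIC (1.91 ± 0.27) and in the dual formulation (1.61 ± 0.27), with 0.12 ± 0.26 in LP 3M. Of the NF-kB subunits, Rela rose in LP PIC (0.56 ± 0.06) and in the dual formulation (0.45 ± 0.06) and had 0.09 ± 0.06 in LP 3M. Nfkb1 rose in LP PIC (0.48 ± 0.08), LP 3M (0.92 ± 0.08) and the dual formulation (1.20 ± 0.08). Nfya, a subunit of the NF-Y factor that binds CCAAT boxes, fell in LP PIC (-0.46 ± 0.08), LP 3M (-0.45 ± 0.08) and the dual formulation (-0.59 ± 0.08).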

How the data were processed

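RNA sequencing of 20 libraries, 5 mice under each of 4 conditions, was analysed. The authors deposited raw counts per gene symbol, 1 table per library, and per the submitters' processing notes the tools were STAR 2.7.11b, HTSeq 0.13.5, DESeq2 1.44.0 and FastQC 0.11.1, with the build GRCm38. Libraries were stranded and poly(A)-enriched, per the labels' protocols. Entries that name no gene (reads outside genes, 5.94 to 8.58%, and shared between genes, 1.14 to 1.90%) stayed out of library sizes and tests. No 2 libraries were duplicates (190 pairs, chi-squared per degree of freedom at least 7.43).

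Counts were fitted in R 4.3.3 with edgeR 4.0.16 and limma 3.58.1 (filterByExpr with a minimum count of 10 and total of 15, TMM factors 0.945 to 1.07, robust quasi-likelihood F-test, 1 mean per condition), which left 12132 genes holding 99.969% of counts. The scripts were tested on simulated data. DESeq2 1.42.0 was an alternative, with other scalings, filters, fits and left-out mice or libraries. Same-numbered libraries come from the same mouse per the labels, and their deviations correlated (mean r 0.377 over 30 pairs, 0.137 to 0.541, against -0.0938 over 120 pairs of different mice). Standard errors are the log2 change over the square root of F. CPM use plain library totals. Python 3.11.15 (numpy 2.4.6, pandas 2.3.3, matplotlib 3.10.9) was used for summaries and plots.

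The members, gene lists, tests and naming rule were chosen with earlier results of these data known. The rule named all 10 members, the standard catalytic subunits, the class I chains, Irf1 and a further regulator that is not reported here, and for each other list the called gene with the smallest p in each direction against LP. It also named the 6 other genes (no Gm or Rik models), with a mean of at least 10 CPM, whose 3 changes against LP were nearest to the median of the members.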

Additional observations from a re-analysis of the deposited data

Results flagged for a closer look

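The effect of adding PIC on Psme2 differed between particles without 3M and particles with it. PIC raised Psme2 by 1.87 ± 0.20 on the log2 scale over LP and by 0.93 ± 0.19 over LP 3M, and the test of the difference itself gave -0.94 ± 0.27 (adjusted p = 0.0385, edgeR). The value kept its sign in all 32 settings, between -1.12 and -0.79, while its adjusted p was under 0.05 in 16 of them and reached 0.195. Psme2b, its near copy, had a difference of -0.60 ± 0.32 (adjusted p = 0.263, edgeR). In the 40 groups of 5 libraries formed by the 10 genes and 4 conditions, 0 had a value set far apart from the other 4 by Dixon's ratio (critical value 0.71).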

How the results depend on the processing

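The log2 changes of the 10 genes in LP PIC against LP, LP 3M PIC against LP, and LP 3M against LP PIC kept direction and call in all 320 combinations of gene and setting each. With the mouse as a replicate block, 2 genes departed downward from the sum of single changes, with DESeq2 2 and without the filter 0, in place of 1, and 0 to 2 when a mouse or library was left out. The block changed no other call of the 10 genes than that of Tapbp. Leaving out a mouse or library gave 1 to 3 genes higher in LP 3M than in LP (1 without mouse 1) and 0 to 1 lower in LP 3M PIC than in LP PIC. With plain library totals the LP 3M values of Psme1 (-0.0245) and Nlrc5 (-0.0171) and the departure of Psmb7 (0.00923) changed sign. Signs also changed in some leave-outs of values that were never called, with these ranges: departure of Tap1 -0.33 to 0.12, Nlrc5 -0.0639 to 0.142 and Psmb7 -0.0919 to 0.0337; LP 3M PIC against LP PIC for Tap2 -0.15 to 0.12 and Nlrc5 -0.0155 to 0.192; LP 3M against LP for Psmb9 -0.0150 to 0.298, Psme1 -0.098 to 0.185, Nlrc5 -0.0399 to 0.16 and Irf1 -0.0346 to 0.224; and LP 3M against LP PIC for Psmb5 -0.021 to 0.182.

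Shares of pairs kept direction and call with counts not divided by length and with the longest transcript. With 4 mice each the exact test has fewer arrangements, and calls were lost, most often without mouse 1, 2 or 4. Such losses also occurred where the groups did not overlap, so they do not by themselves show dependence on a mouse. Ranges in points for Psmb8 were 16.4 to 21.1 (LP PIC against LP), 14.0 to 15.9 (LP 3M PIC against LP), 13.4 to 15 (LP 3M PIC against LP 3M), -20.2 to -16.1 (LP 3M against LP PIC) and -0.42 to 0.92 (LP 3M against LP). For Psmb9 they were 4.45 to 5.90, 2.32 to 3.38, 3.62 to 4.52 and -7.03 to -5.76 in the first 4 of these, and -2.85 to -1.86 for LP 3M PIC against LP PIC. For Psmb10 they were 22 to 25.7 (LP PIC against LP), 14.1 to 15.8 (LP 3M PIC against LP 3M), -28.7 to -23.7 (LP 3M against LP PIC) and -12.9 to -8.26 (LP 3M PIC against LP PIC). Shares were not tested with the mouse as a block. Depth limits none of the 10 genes, whose lowest count was 263.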

Other observations

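Among 8298 other genes with a mean of at least 10 CPM, the 6 whose 3 log2 changes against LP lay nearest to the median of the 10 genes (1.54 in LP PIC, 0.29 in LP 3M, 1.48 in LP 3M PIC) were Irgm2, Nt5c3, Parp11, Ifi35, Oas1a and Insl6. Irgm2, an immunity-related GTPase, had 1.55, 0.25 and 1.49, a root mean square difference of 0.0243. Nt5c3, a pyrimidine nucleotidase, had 1.57, 0.27 and 1.45 (0.0275). Parp11, an ADP-ribosyltransferase, had 1.51, 0.17 and 1.49 (0.0766), and Ifi35, an interferon-induced protein, had 1.45, 0.31 and 1.60 (0.0855). Oas1a, an oligoadenylate synthetase, lay at 0.116 and Insl6, an insulin-like peptide, at 0.127. For comparison, the members nearest to their own median were Psmb9 at 0.133 and Tap2 at 0.170, and the farthest was Psme2 at 0.597. These likenesses rest on 3 comparisons that share the same LP libraries.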
